A study of Mus musculus with 4 samples.

Results

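The chemokine ligands were described across 4 sections of the injured mouse Achilles tendon. A gene was taken as a member by its symbol alone (Ccl followed by a number and at most 1 letter, Cxcl followed by a number, or Cx3cl1), whatever its values. The rule found 43 of the 32285 genes in the matrices, under 37 symbols. Of these, 29 had at least 30 unique molecular identifiers (UMIs, each counting 1 captured RNA molecule) over the 4 sections and are reported: 19 CC ligands, 9 CXC ligands and Cx3cl1. Just inside that threshold stood Ccl20 with 30 UMIs, and just outside it Cxcl3 with 19. The other members counted below it were Ccl1 with 7, Cxcl17 with 5, Cxcl15 with 2 and Ccl27b with 1, and 9 gene IDs had 0 UMIs. Those 9 include second copies of Ccl19, Ccl21a and Ccl27a and all copies of Ccl21b and Ccl21c. The copies of Ccl21 and of Ccl27 are nearly identical, so that the values printed as Ccl21a and Ccl27a may hold reads of their copies.

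The tissue came from 12-week-old mice whose left Achilles tendon had been injured with a biopsy punch, and was taken 14 days after the operation. The F592A group was TrkA F592A mice with the treatment 1NMPP1, and the WT group was TrkA WT mice with the treatment Control, each with 2 sections of 10 µm measured on Visium arrays. TrkA is the receptor tyrosine kinase for nerve growth factor on sensory and sympathetic neurons. With the F592A change the kinase can be blocked by the small molecule 1NMPP1. Genotype and drug changed together and cannot be told apart here. Tissue of 4 mice per genotype was pooled, mice of both sexes were used and no section is tied to an animal. Every p-value therefore measures only the spread between sections. The WT sections differed in sex-linked genes, as given below, so that their spread also holds a difference between animals. The spread of the F592A sections may be technical. Whether the WT mice received vehicle or drug is not given in the sources used here.

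Chemokines are small secreted proteins that bind G protein-coupled receptors on leukocytes and direct where these cells move. CC ligands such as Ccl2 draw monocytes, ELR-bearing CXC ligands such as Cxcl5 draw neutrophils, and homeostatic ligands such as Cxcl12 and Ccl21a hold or guide cells in resting tissue. In a healing tendon, macrophages are both a main source and a main target of CC ligands.

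Upstream sequences are shown for 6 members named in the tissue and group results. Ccl12 and Ccl8 lie side by side on chromosome 11, and Ccl9 and Ccl6 do so further along it. These 4 CC genes were all higher in macrophage-marker-rich spots, and so were Ccl2 and Ccl7, which lie before Ccl11. Ccl11 itself, the member before Ccl12, was not (log2 change -0.08). The neutrophil attractants Cxcl1 and Cxcl2 are neighbours on chromosome 5. Each is the 120 bases before the annotated start, from RefSeq on GRCm38.p6. Capitals mark the letters TATAAA at any position (given strand) or a match to the NF-κB motif (either strand).
Ccl8 (chr11:82115065-82115184, plus strand): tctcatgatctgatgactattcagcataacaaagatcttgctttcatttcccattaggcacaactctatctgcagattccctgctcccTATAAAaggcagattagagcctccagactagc
Ccl12 (chr11:82101725-82101844, plus strand): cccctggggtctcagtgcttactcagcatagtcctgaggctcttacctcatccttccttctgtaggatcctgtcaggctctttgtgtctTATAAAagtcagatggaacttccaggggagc
Ccl6 (chr11:83593088-83593207, minus strand): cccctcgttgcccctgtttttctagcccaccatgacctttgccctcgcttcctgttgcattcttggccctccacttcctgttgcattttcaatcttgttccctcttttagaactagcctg
Ccl9 (chr11:83578637-83578756, minus strand): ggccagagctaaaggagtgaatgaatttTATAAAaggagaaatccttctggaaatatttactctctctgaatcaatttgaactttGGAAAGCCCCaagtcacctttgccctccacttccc
Cxcl1 (chr5:90891125-90891244, plus strand): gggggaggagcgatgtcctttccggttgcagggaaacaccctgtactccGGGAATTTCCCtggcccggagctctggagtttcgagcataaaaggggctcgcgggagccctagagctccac
Cxcl2 (chr5:90903779-90903898, plus strand): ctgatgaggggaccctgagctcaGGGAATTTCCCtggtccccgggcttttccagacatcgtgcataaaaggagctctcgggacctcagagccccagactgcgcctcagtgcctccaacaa

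A promoter was matched by symbol for 21 of the 29 members, and motifs were searched in the 250 bases before the start. The NF-κB motif was found for 5 of the 21 (23.8%), namely Ccl20, Ccl9, Cxcl1, Cxcl10 and Cxcl2, against 3.75% of 27025 promoters. The interferon-response motif ISRE was found for 3 members (14.3%), Ccl19, Cxcl10 and Cxcl14, against 3.04% of all promoters. The GAS motif TTCNNNGAA was found for 2 (9.52%), Ccl17 and Cxcl14, against 7.18% of all. The AP-1 motif TGANTCA was also found for 2 (9.52%), Ccl9 and Cxcl10, against 6.87%. The letters TATAAA, at any position in these bases, were found for 6 members (28.6%) against 8.12% of all promoters. Cxcl1 and Cxcl2 carry the same run of capitals, in which 2 matches overlap. A match describes these letters and is not a bound site.

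The 4 libraries held 30154873 to 43957617 UMIs over 2027 to 3047 tissue spots, of which 3 or 4 per section with under 500 UMIs were left out. The 4 sections share 727 barcodes, since the arrays carry a common barcode set. The sections differ in more than the group. WT 2 was the one section with Xist above a trace (4207 UMIs, against 7, 12 and 10 in F592A 1, F592A 2 and WT 1). It had 23 UMIs from 4 Y-linked genes, against 7723, 7522 and 7918 in those sections. WT 2 thus reads as female and the other sections as male tissue. Sex differed between the WT sections and was unequal between the groups, and its part in any difference was not tested. In the spot maps F592A 1 and F592A 2 have similar outlines, each of a larger and a smaller piece of tissue, while WT 1 and WT 2 differ from each other. Spots dominated by muscle numbered 573 and 448 in F592A sections and 545 and 161 in WT sections, and epidermal spots 198 and 175 against 105 and 60. The tendon marker list, with Tnmd, Fmod and Comp, was detected in every section. On a CPM scale, which sets each library to a common total of UMIs, it summed to 4623 and 4105 CPM in F592A sections against 5766 and 6806 CPM in WT sections. Fewer cells of a type and less RNA per cell cannot be told apart in such sums.

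**Figure D1:**
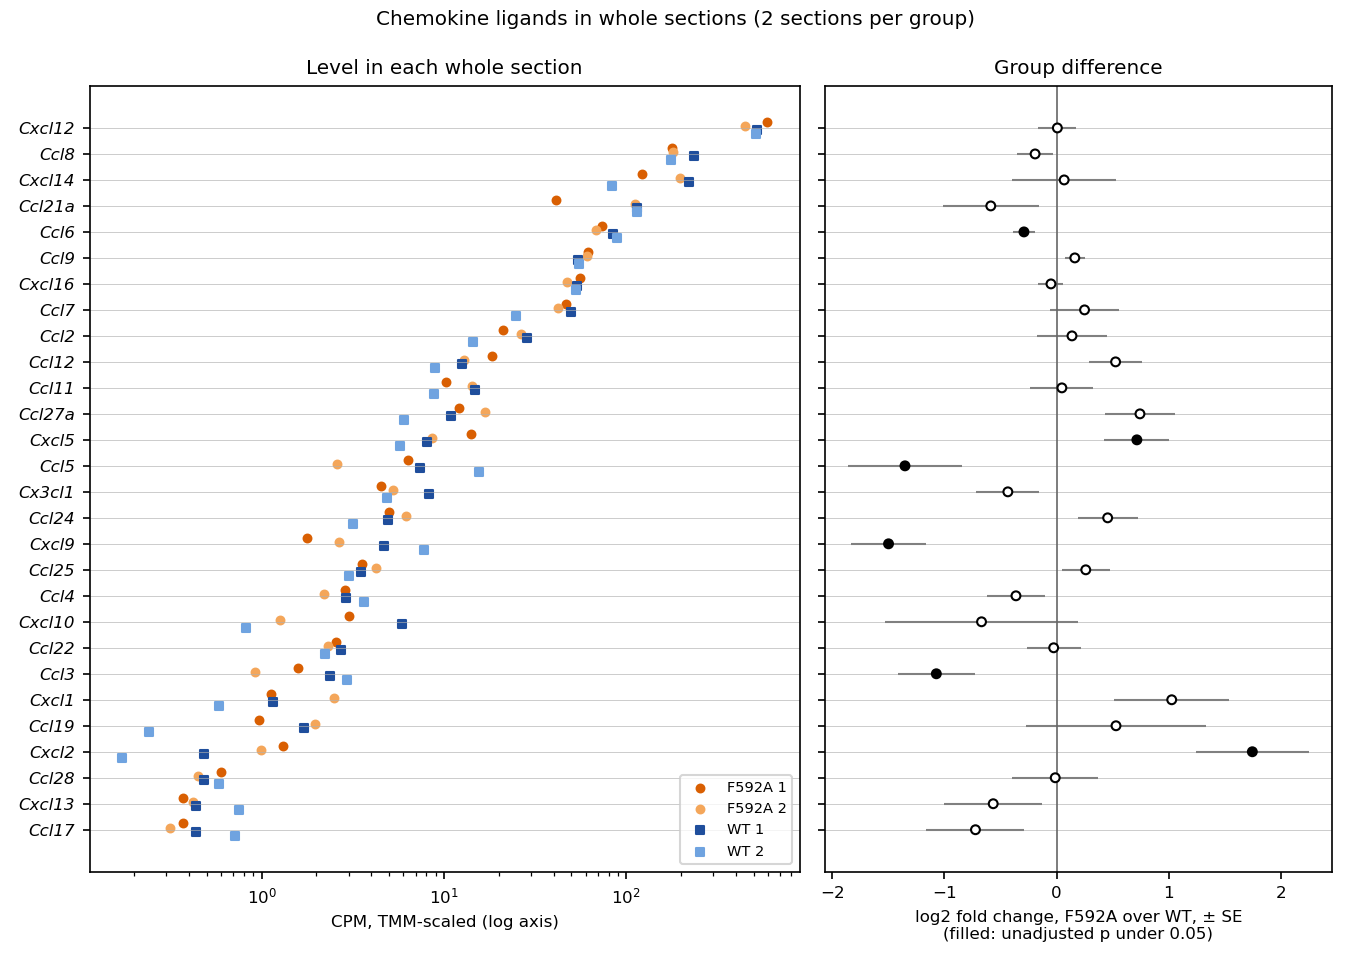
Left, the TMM-scaled CPM (log axis) of 28 chemokine ligands in each whole section, F592A as circles and WT as squares, ordered by mean level. Right, the log2 fold change of F592A over WT with its SE (2 sections per group). Cxcl12 lies far above the others at 447 to 595 CPM, and the filled points are the 6 ligands with an unadjusted p under 0.05, of which none passed adjustment.

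Among the 28 members tested in whole sections, the highest mean level was 1131 times the lowest. A UMI counts molecules, so levels of different genes are compared as CPM without division by length. Cxcl12, the ligand of Cxcr4, had 594.6 and 447.4 CPM in F592A sections and 524.2 and 512.6 CPM in WT sections. It made up 39.8% of all member UMIs, and its lowest section lay above the highest section of every other member. Ccl8, a macrophage product in mouse, followed at 179.3 and 181.5 CPM in F592A sections and 235.1 and 176.8 CPM in WT sections, and Cxcl14 at 122.4 and 196.6 against 220.1 and 83.8 CPM. These 3 ligands made up 66.8% of member UMIs. The section ranges of Ccl8 and Cxcl14 overlap, and so do those of Cxcl14 and Ccl21a, so that these neighbours do not differ beyond their spread. Ccl6 (68.0 to 88.8 CPM) stood above Ccl9 (54.5 to 61.9) in every section, while below Ccl9 each neighbour in the order overlapped the next.

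From Cx3cl1 (4.51 to 8.25 CPM) downward, 14 of the 28 members tested averaged under 6 CPM. Ccl28, Cxcl13 and Ccl17 stood lowest of these, at means of 0.527, 0.494 and 0.460 CPM over the 4 sections. Ccl20, an epithelial ligand of Ccr6, was lower still, at 0.205 and 0.351 CPM in F592A sections and 0.186 and 0 CPM in WT sections, and too sparse for the test of whole sections. The members together were 0.127% and 0.131% of all UMIs in F592A sections, against 0.148% and 0.116% in WT sections, and the groups overlap.

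Where each ligand was found depended on the tissue. Spots were put in classes by the share of UMIs from marker lists that hold no member, and sums of classes within the same section were compared with the section as a block, with the quasi-likelihood test of edgeR and p-values adjusted by Benjamini-Hochberg. Spots not classed as muscle, epidermis, nerve or adipose are called connective. Connective spots above their section's 75th percentile for macrophage markers, with Cd68, Csf1r and C1qa, are called macrophage-marker-rich.

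Of 28 members tested, 17 rose and 1 fell in macrophage-marker-rich spots, against 14.1% of all genes higher, 16.5% lower and 30.6% in either direction. The median log2 fold change was 0.87 over the members and 0.01 over all genes. Ccl8 had 290 and 332 CPM in these spots of F592A sections and 449 and 335 CPM in WT sections, against 82.4, 80.4, 91.5 and 81.8 CPM in the other connective spots of the same 4 sections. That is a log2 fold change of 2.05 ± 0.08 (SE, n = 4 sections, adjusted p = 5.79e-06), with the 4 higher values far from the 4 lower ones. Ccl6, a macrophage CC ligand of mouse, averaged 140 ± 29.97 CPM against 36.5 ± 3.07 CPM (SD, n = 4), a log2 change of 1.92 ± 0.11 (adjusted p = 1.12e-05). Ccl9, a ligand of Ccr1, averaged 96.2 ± 5.74 against 32.9 ± 4.92 CPM, a change of 1.56 ± 0.10 (adjusted p = 1.77e-05).

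Of the monocyte attractants of the Ccr2 group, Ccl12 changed by 1.28 ± 0.21, Ccl7 by 1.24 ± 0.17 and Ccl2 by 0.97 ± 0.15 on the log2 scale (adjusted p = 0.00219, 0.000831 and 0.00139). The neutrophil attractant Cxcl5 averaged 16.5 ± 5.65 CPM against 4.02 ± 1.58 CPM, a change of 2.06 ± 0.18 (adjusted p = 9.18e-05), and Ccl5, made by T cells and macrophages, changed by 1.76 ± 0.23 (adjusted p = 0.000686). The lymphoid ligand Ccl19 changed by 2.26 ± 0.28 from a low base (2.12 against 0.424 CPM; adjusted p = 0.000462), and Ccl21a by 1.20 ± 0.20. Cxcl12, Cxcl14, Cxcl16, Ccl4, Ccl3, Ccl22 and Cxcl1 also rose, by 0.81 to 0.97. Ccl22 was higher in 3 of 4 sections and every other of the 17 in all 4. Ccl22, Ccl3 and Cxcl1 passed narrowly. Ccl22 was not called without F592A 2 (log2 0.85), WT 1 (0.67) or WT 2 (0.97), Ccl3 without F592A 1 (0.72), WT 1 (0.93) or WT 2 (0.69), and Cxcl1 without F592A 2 (0.65), WT 1 (0.83) or WT 2 (0.73).

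Ccl11, the eotaxin, did not follow them: it averaged 8.49 CPM in macrophage-marker-rich spots and 9.03 CPM in the other connective spots, a log2 change of -0.08 ± 0.20 (adjusted p = 0.797). Ccl27a, the keratinocyte ligand of Ccr10, was the 1 member that fell, by 0.80 ± 0.21 (adjusted p = 0.0182), and was not called without F592A 2 (-0.67), without WT 1 (-0.62) or with lower class thresholds (-0.12). Macrophage-marker-rich spots were also deeper. They held 55.3% and 50.6% of the connective UMIs of F592A sections and 45.9% and 40.3% of those of WT sections, and the part of depth in these differences was not tested. Lists of other cells were higher there too, with 8 of 8 endothelial, 7 of 8 fibroblast, 5 of 5 lymphatic and 7 of 10 T and NK cell markers called higher. In contrast, 20 of 20 epidermal and 19 of 20 muscle markers were called lower. The part of these lists was not tested.

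**Figure D2:**
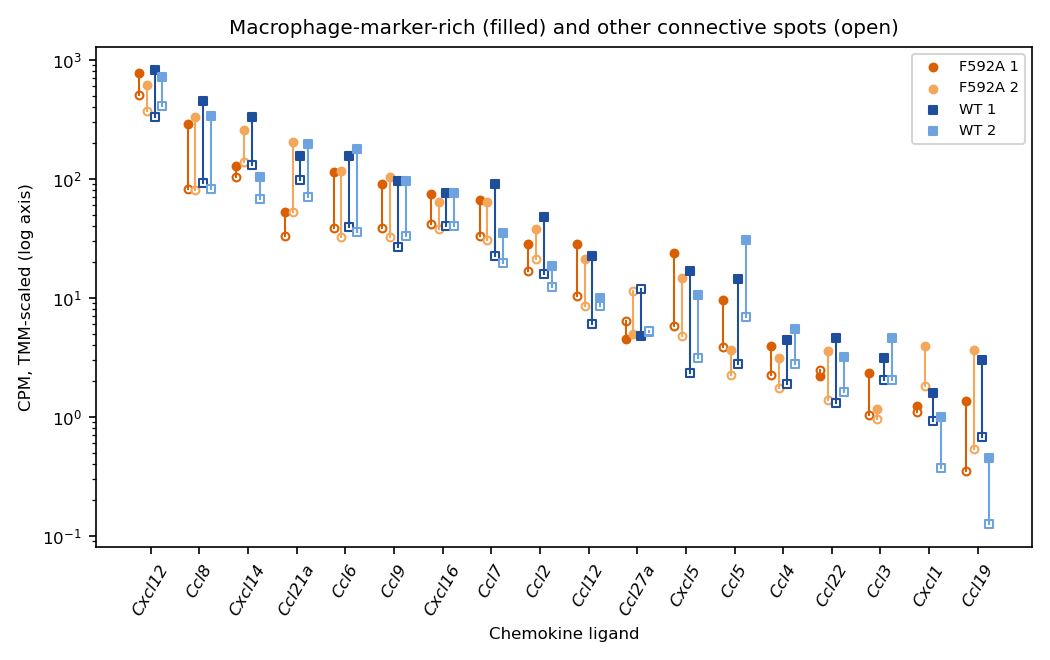
TMM-scaled CPM (log axis) of the 18 ligands that passed the test, in macrophage-marker-rich spots (filled) and the other connective spots (open), with a line joining the 2 values of each section (F592A circles, WT squares). Filled points lie above open ones for all but Ccl27a and 1 section of Ccl22.

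Across spots, Ccl8 and Cxcl12 had the highest correlations with the macrophage markers among the 14 members with at least 1000 UMIs. Both had a median r of 0.41 over the sections (Ccl8 0.34 to 0.49, Cxcl12 0.35 to 0.46). Cxcl12 had the higher r of the pair in both F592A sections and Ccl8 in both WT sections. With the fibroblast markers the median r was 0.39 for Cxcl12 and 0.33 for Ccl8. Among 91 pairs of those members, Ccl8 and Ccl6 were most alike (median r 0.31, 0.21 to 0.41), then Ccl6 and Ccl9 (0.29). Ccl21a had a median r of 0.33 with the lymphatic markers, with Prox1, Lyve1 and Flt4, and of 0.25 with the macrophage markers. These values describe single spots of a section, which share the library and depth, and in sparse counts weak values are no finding.

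**Figure D3:**
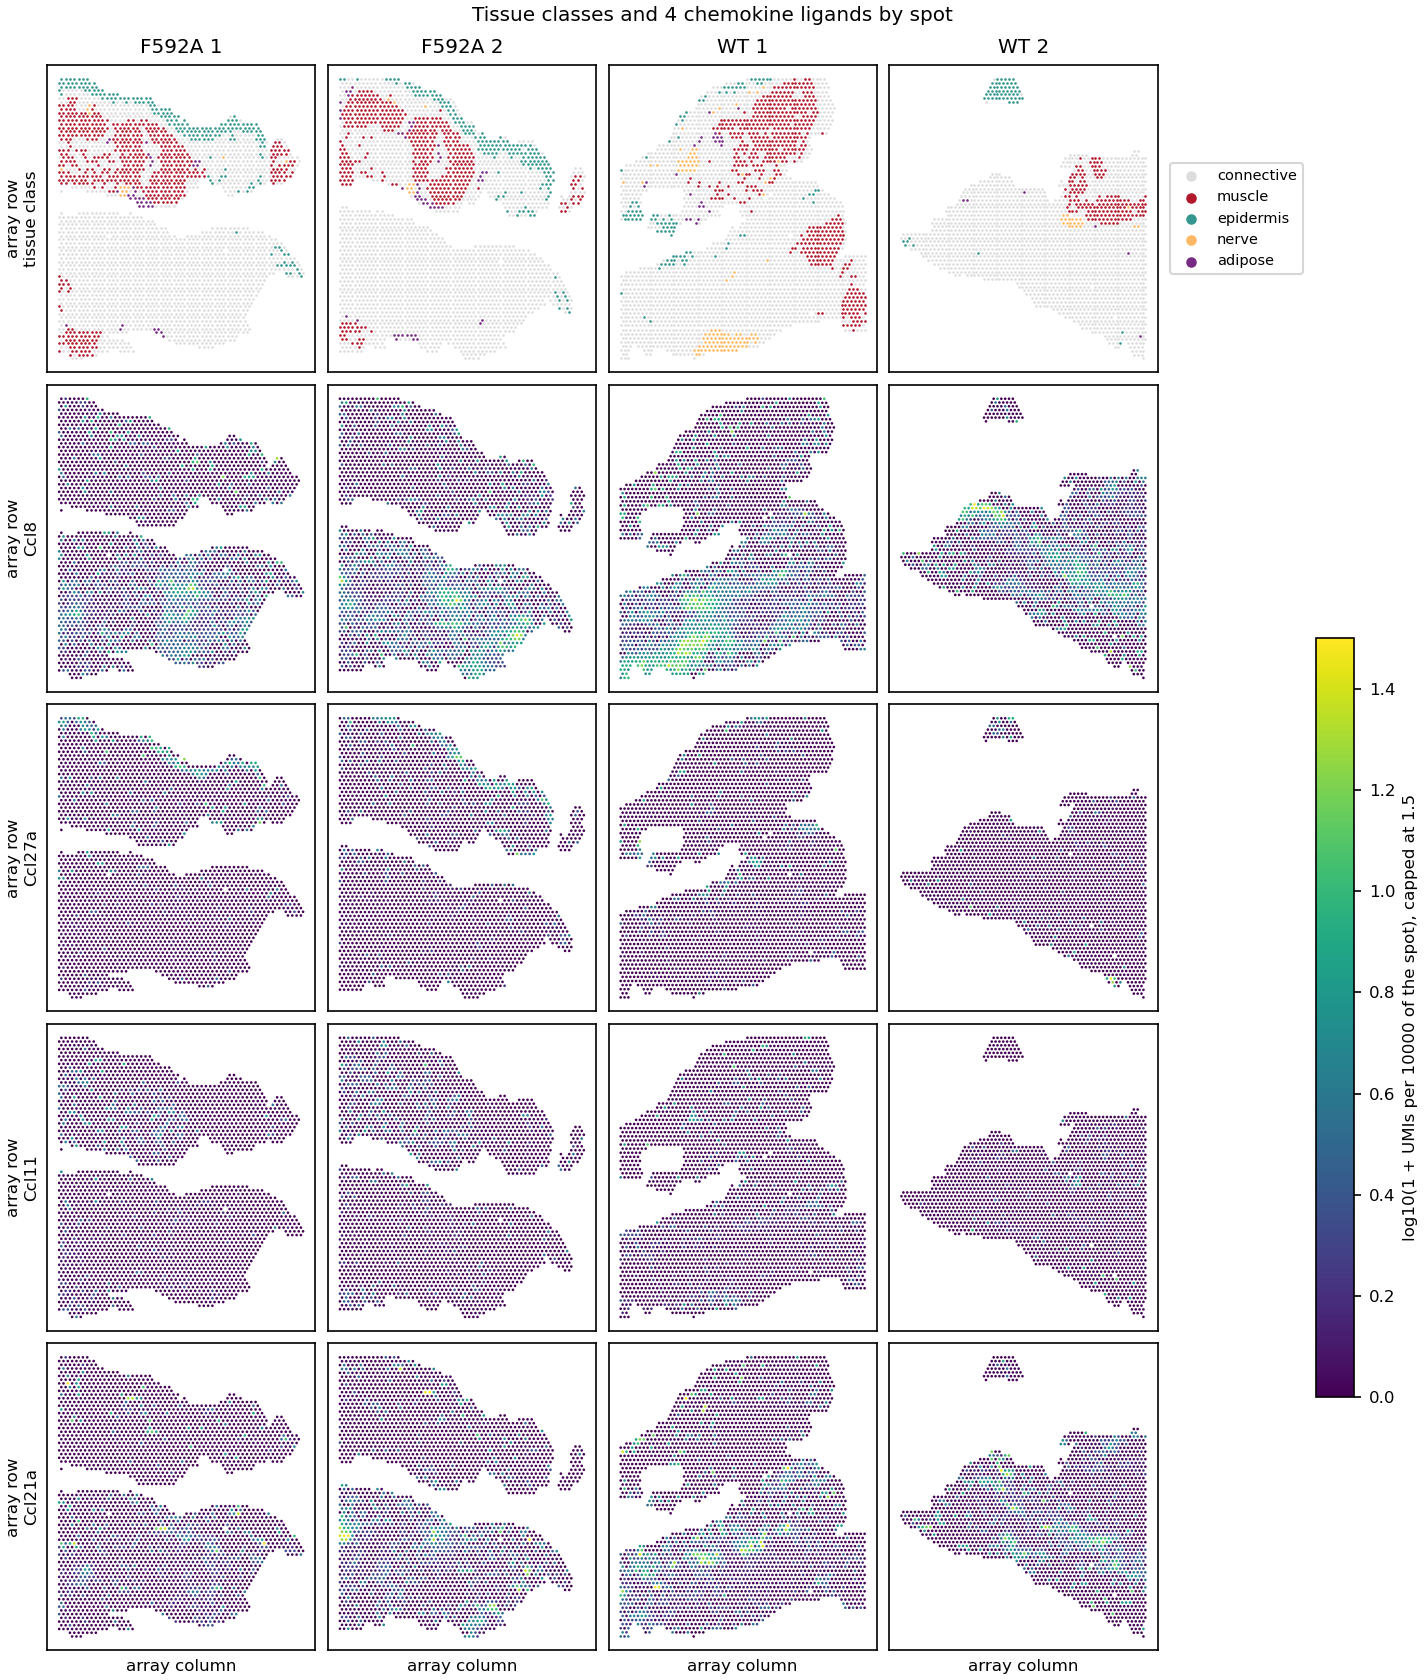
Each column is a section, F592A left of WT. The top row colours spots by tissue class and the other rows give the level of Ccl8, Ccl27a, Ccl11 and Ccl21a as log10(1 + UMIs per 10000 of the spot), capped at 1.5. Ccl27a lies along the epidermis, Ccl8 in patches of the connective tissue, and Ccl11 is strongest in nerve spots. Scaled by the UMIs of each class alone, Ccl11 averaged 131 CPM in nerve, 35.6 CPM in muscle and 35.4 CPM in adipose spots, the last on 27 UMIs.

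The connective spots of each section were also split at the median share of tendon markers. In the tendon-marker-rich spots 8 of 27 members tested fell and 0 rose, against 19.3% of all genes lower, 17.1% higher and 36.3% in either direction (edgeR; 10 members had an unadjusted p under 0.05, all lower, and DESeq2 called the same 8). Cxcl5 had 7.30 and 5.18 CPM in the tendon-marker-rich spots of F592A sections and 6.33 and 2.46 CPM in WT sections, against 34.6, 20.8, 16.9 and 13.2 CPM in the tendon-marker-poor spots of those sections. It fell by 1.99 ± 0.16 on the log2 scale (adjusted p = 0.000184), and no tendon-marker-rich value reached a tendon-marker-poor one. Ccl11 fell by 1.10 ± 0.13 (adjusted p = 0.000808), Ccl27a by 1.07 ± 0.21 (0.00644), and Ccl24, which shares the eotaxin receptor Ccr3, by 0.90 ± 0.14 (0.00283). With lower class thresholds Ccl27a was not called (-0.46). Marker lists also fell in these spots, with 20 of 20 epidermal, 6 of 7 neutrophil, 6 of 6 mast cell and 6 of 8 dendritic cell genes called lower. Tendon-marker-rich spots held 69.5% and 71.7% of the connective UMIs of F592A sections and 75.03% and 67.4% of those of WT sections. The part of these lists and of depth was not tested.

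Of the CC ligands that were higher in macrophage-marker-rich spots, Ccl6 fell by 0.77 ± 0.12, Ccl5 by 0.58 ± 0.13, Ccl8 by 0.52 ± 0.12 and Ccl7 by 0.43 ± 0.09. With class thresholds at 2 times the level these 4 were not called, and the log2 changes of Ccl5 and Ccl7 were then -0.0028 and -0.08. Ccl8 was not called without F592A 1 (-0.44) or WT 1 (-0.41), nor Ccl5 without WT 2 (-0.42). Ccl2, the main monocyte attractant, averaged 24.8 CPM in tendon-marker-rich and 25.7 CPM in tendon-marker-poor spots (log2 -0.06 ± 0.12, adjusted p = 0.714). Cxcl12 averaged 540 and 643 CPM (adjusted p = 0.125).

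In muscle spots, where muscle markers such as Acta1 and Ckm made up at least 10% of UMIs, 5 of 25 members tested rose and 11 fell. Over all genes 27.9% were higher, 29.5% lower and 57.4% called in either direction, so that calls were common everywhere. Ccl11 had 52.0 and 71.7 CPM in muscle spots of F592A sections and 39.6 and 15.7 CPM in WT sections, against 5.87, 8.12, 10.6 and 6.89 CPM in the other spots. It was higher in 4 of 4 sections, by 2.52 ± 0.25 on the log2 scale (adjusted p = 1.38e-06). Ccl25, known as a thymus and gut ligand of Ccr9, averaged 9.40 ± 2.38 CPM against 2.61 ± 0.30 CPM (SD, n = 4), a change of 1.83 ± 0.23 (adjusted p = 1.70e-05).

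The calls of the other members higher in muscle depended on the scaling. Ccl27a (0.84 ± 0.18), Ccl24 (0.70 ± 0.26) and Cxcl14 (0.32 ± 0.13) passed with TMM factors. Scaled by total UMIs alone, the changes of Ccl27a and Ccl24 were 0.19 and 0.05 and no longer passed, and that of Cxcl14 turned to -0.31, while Ccl11 and Ccl25 were still called. Ccl24 was also not called without F592A 1 (0.50) or F592A 2 (0.63), nor Cxcl14 without F592A 1 (0.20) or WT 2 (0.24). The members that fell included Cxcl5 (0.720 against 7.995 CPM, log2 -3.57 ± 0.41), Ccl5 (-2.18 ± 0.34), Ccl8 (-1.84 ± 0.16), Ccl7 (-1.80 ± 0.17) and Ccl2 (-1.74 ± 0.24), with adjusted p-values of 0.000112 or less. The summed macrophage list was 614 to 924 CPM in muscle spots, against 3131 to 3441 CPM in whole sections, and its part in these lower levels was not tested.

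Epidermal spots held the clearest single-gene pattern. Ccl27a had 238 and 230 CPM in epidermal spots of F592A sections and 165 and 65.2 CPM in WT sections, against 6.49, 10.2, 9.86 and 6.01 CPM in the other spots. It was higher in 4 of 4 sections, by 4.42 ± 0.23 on the log2 scale (adjusted p = 1.67e-12). In all, 5 of 27 members tested rose and 13 fell, against 20% of all genes higher, 24% lower and 44% in either direction. Ccl22, a ligand of Ccr4 made by dendritic cells, changed by 1.77 ± 0.49, Cx3cl1, the membrane-bound ligand of Cx3cr1, by 1.28 ± 0.38 and Cxcl14, an abundant epithelial chemokine, by 0.87 ± 0.17 (adjusted p = 0.00537, 0.00803 and 0.000259), each in 4 of 4 sections. Ccl20 was called at 2.65 ± 1.03, but it was higher in 2 of 4 sections, had 30 UMIs in all and was not called in DESeq2 or without WT 2 (2.66). Ccl22 was not called without F592A 1 (1.39), nor Cx3cl1 without F592A 1 (1.18) or F592A 2 (1.25).

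Among those that fell in the epidermis, Cxcl12 averaged 135 ± 45.9 CPM against 578 ± 68.1 CPM (SD, n = 4), a log2 change of -2.15 ± 0.19 (adjusted p = 5.90e-09). Ccl12 averaged 1.63 against 14.8 CPM (-4.09 ± 0.60), Ccl9 11.3 against 64.7 CPM (-2.33 ± 0.24) and Ccl8 56.2 against 215 CPM (-2.02 ± 0.18). Of the marker lists, 12 of 12 macrophage, 7 of 8 fibroblast and 8 of 8 endothelial genes were called lower there too, and their part was not tested. Ccl3 and Cxcl1 had 0 UMIs in the epidermal spots of every section, against 293 and 211 UMIs in the other spots. With a floor of 3 counts over the 4 sections, these were at least 1.92-fold and 1.38-fold lower, and neither was called in DESeq2. Cxcl2, Ccl28 and Cxcl13 were also at 0 there, with too few UMIs elsewhere for a bound.

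**Figure D4:**
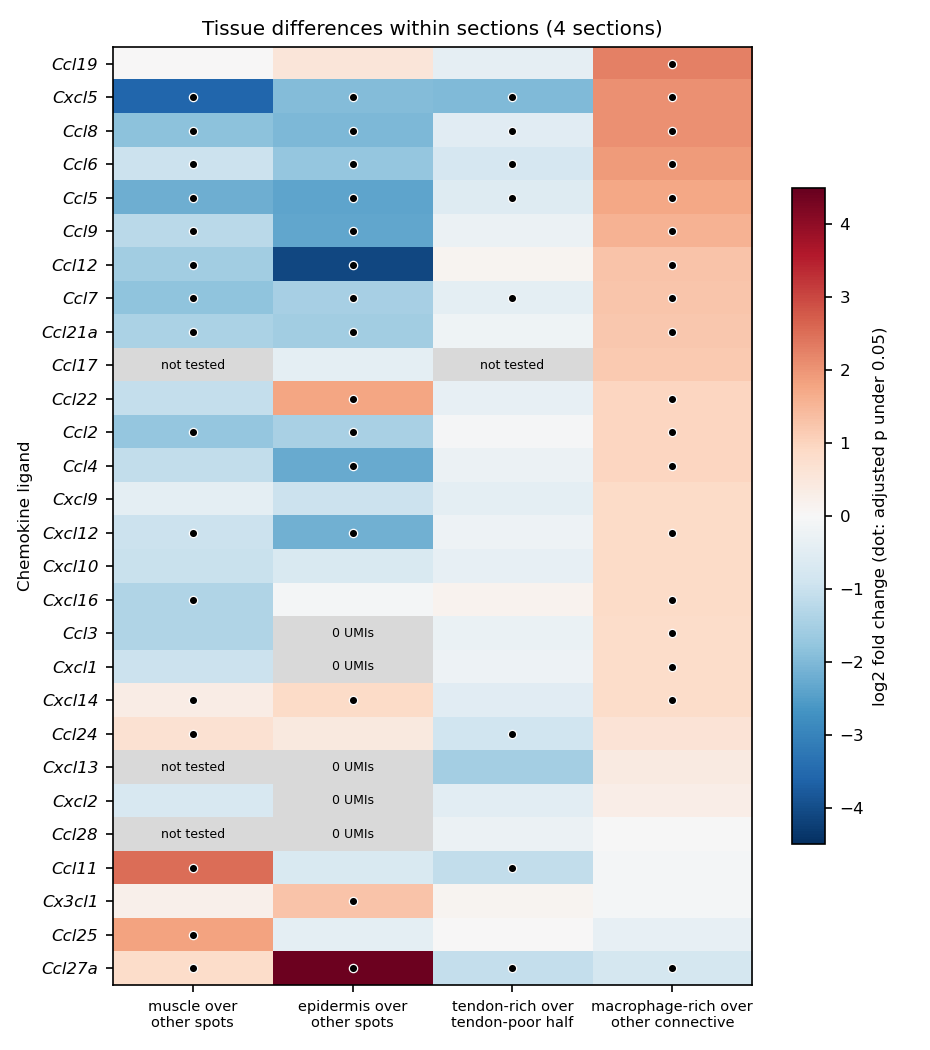
Log2 fold changes of 28 ligands in 4 comparisons within sections (n = 4 sections), in red where the first-named tissue was higher, with a dot where the adjusted p was under 0.05. Grey cells were not tested or had 0 UMIs in the epidermis. Ccl20, tested in the epidermis alone, is not drawn. Ccl27a stands out in the epidermis, Ccl11 and Ccl25 in muscle and Ccl8, Ccl6, Cxcl5 and Ccl19 in macrophage-marker-rich spots.

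Nerve and adipose spots were too few to test, with 13 and 9 nerve spots in F592A sections and 113 and 21 in WT sections. In nerve spots, classed by a list of myelin markers, Ccl11 had 125 and 135 CPM in F592A sections and 94.2 and 169 CPM in WT sections, on 7, 4, 101 and 30 UMIs. Each of these 4 values lay above that section's level in muscle spots. In adipose spots Ccl24 had 36.1 and 57.7 CPM in F592A sections and 39.3 and 21.0 CPM in WT sections, on 27 UMIs in all, against a mean of 4.84 CPM in whole sections on the same scale.

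The question of the design is whether the F592A group differs from WT. In whole sections 0 of 28 members tested passed the adjusted threshold, against 0.0795% of all genes (13 of 16347), while 6 had an unadjusted p under 0.05 (edgeR) and DESeq2 called 1, Cxcl9. The members' median log2 fold change was -0.0022, with 14 positive and 14 negative. In 15 of 28 the groups did not overlap, and the same was true of 44.2% of all genes.

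Cxcl9, a ligand of Cxcr3, and the inflammatory CC ligands Ccl5 and Ccl3, which draw T cells and monocytes, had lower values in F592A sections. Cxcl9 had 1.77 and 2.65 CPM in F592A sections, against 4.71 and 7.81 CPM in WT sections, a log2 difference of -1.50 ± 0.34 (adjusted p = 0.231 in edgeR). Ccl5 had 6.33 and 2.59 CPM against 7.44 and 15.5 CPM (-1.35 ± 0.51, adjusted p = 0.399 in edgeR), and Ccl3 had 1.59 and 0.917 CPM against 2.37 and 2.94 CPM (-1.07 ± 0.35, adjusted p = 0.345). The groups do not overlap for these 3 members, and WT 2 was highest in each. In WT 2, 1 spot held 42 of the 228 UMIs of Cxcl9, and in F592A 1, 1 spot held 52 of the 275 UMIs of Ccl5. Cxcl10, the other tested ligand of Cxcr3, overlapped, at 3.02 and 1.26 CPM in F592A sections and 5.88 and 0.822 CPM in WT sections. The summed T and NK cell list moved the same way, at 15.2 and 18.2 CPM in F592A sections and 22.5 and 31.1 CPM in WT sections, with 10 of 10 members negative and 0 called, and its part was not tested. Without WT 2 the difference was -1.09 for Cxcl9 and -0.73 for Ccl5, and without F592A 2 it was -0.85 for Ccl5, while without F592A 1 it was -2.14.

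Of the neutrophil attractants that bind Cxcr2, Cxcl2 and Cxcl5 had higher values in F592A sections, and 0 of 3 passed the test. Cxcl2 had 1.31 and 0.996 CPM in F592A sections, against 0.482 and 0.171 CPM in WT sections (1.75 ± 0.50, adjusted p = 0.307 in edgeR), on 57, 38, 21 and 5 UMIs. In F592A 1, 1 spot held 11 of the 57. Cxcl5 had 14.1 and 8.65 CPM against 8.11 and 5.72 CPM (0.72 ± 0.29, adjusted p = 0.423), so that the groups sit side by side without overlap. Without F592A 1 the difference of Cxcl5 was 0.32. Cxcl1 overlapped, at 1.13 and 2.49 CPM in F592A sections and 1.15 and 0.582 CPM in WT sections. The neutrophil list, with S100a8 and Csf3r, summed to 59.0 and 56.3 CPM in F592A sections and 54.0 and 28.5 CPM in WT sections, with 7 of 8 tested members positive and 0 called, and its part was not tested.

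Of the macrophage ligands, Ccl6 had 74.2 and 68.0 CPM in F592A sections, against 85.1 and 88.8 CPM in WT sections, a small difference (-0.29 ± 0.10, adjusted p = 0.362 in edgeR). Ccl9 had 61.9 and 60.9 CPM against 54.5 and 55.2 CPM (0.16 ± 0.09, adjusted p = 0.539). Their groups do not overlap, in opposite directions. Ccl12 had 18.3 and 12.9 CPM against 12.6 and 8.97 CPM (0.53 ± 0.23, adjusted p = 0.468), where the lowest F592A section was close to the highest WT section. Ccl7 had 46.8 and 42.1 CPM in F592A sections and 49.6 and 24.9 CPM in WT sections, and Ccl2 had 21.0 and 26.5 CPM against 28.5 and 14.5 CPM. In both, WT 2 was lowest and the groups overlap. The macrophage list summed to 3441 and 3194 CPM in F592A sections and 3131 and 3290 CPM in WT sections.

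Among the homeostatic and epithelial ligands, Ccl21a had 41.2 and 112 CPM in F592A sections, against 115 and 115 CPM in WT sections (-0.59 ± 0.43, adjusted p = 0.651 in edgeR), where F592A 1 alone was low. In F592A 2, 1 spot held 388 of its UMIs. Ccl27a had 12.1 and 16.7 CPM against 11.004 and 6.06 CPM (0.74 ± 0.31, adjusted p = 0.441), and the epidermis list moved with it, at 3194 and 4582 CPM in F592A sections and 3060 and 1222 CPM in WT sections. Cxcl16, the ligand of Cxcr6, had 55.6 and 47.1 CPM against 53.5 and 52.8 CPM, and Ccl11 had 10.2 and 14.2 CPM against 14.7 and 8.83 CPM, with overlap in both. The log2 difference of Cxcl12 was 0.01 ± 0.17, that of Ccl8 -0.19 ± 0.16 and that of Cxcl14 0.07 ± 0.46.

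The other 11 members tested lay between log2 differences of -0.72 for Ccl17 and 1.03 for Cxcl1, with adjusted p-values of 0.510 or more (edgeR). Of these, Ccl24 and Ccl25 were higher in both F592A sections than in either WT section and Cxcl13, Ccl17 and Ccl4 were lower in both. Cx3cl1, Ccl22, Cxcl10, Cxcl1, Ccl19 and Ccl28 overlapped.

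The same comparison within tissue classes called no member. In muscle spots 0 of 15 tested passed, against 0.0428% of all genes (5 of 11674), and 3 had an unadjusted p under 0.05 (edgeR). In epidermal spots it was 0 of 11, against 0% of 9507 genes, with 4 at an unadjusted p under 0.05. In the tendon-marker-rich spots it was 0 of 28, against 0.0131% of all genes (2 of 15255), with 5 at that p. In the tendon-marker-poor spots it was 0 of 26, against 0% of 14419 genes, with 4 at that p. DESeq2 called 0, 0, 0 and 2 members in these 4 classes, the last being Ccl21a and Cxcl9. The members named for single classes were chosen after their values were seen.

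Ccl21a, which guides Ccr7-bearing cells into lymphatic vessels, had lower values in F592A sections in the tendon-marker-poor, the epidermal and, with overlap, the muscle spots, and passed in none of them. In tendon-marker-poor spots it had 47.9 and 80.7 CPM in F592A sections, against 209 and 181 CPM in WT sections, a log2 difference of -1.60 ± 0.29 (adjusted p = 0.691 in edgeR). For Ccl21a the lowest WT section was far above the highest F592A section, in spots where 28.7% of all genes had no overlap between groups. In epidermal spots it had 12.3 and 30.7 CPM in F592A sections, against 104 and 35.9 CPM in WT sections (-1.83 ± 0.53, adjusted p = 0.412), and the difference was -0.71 without WT 1 and was called without F592A 2 (-2.57) or WT 2 (-2.23). In muscle spots it had 18.8 and 12.2 CPM against 46.7 and 17.4 CPM (-1.12 ± 0.41, adjusted p = 0.431), and the difference was -0.15 without WT 1. In the tendon-marker-rich spots the F592A sections, at 42.5 and 145 CPM, lay on either side of the WT sections at 93.9 and 93.7 CPM. The lymphatic list in the tendon-marker-poor spots summed to 56.0 and 60.5 CPM in F592A sections and 118 and 124 CPM in WT sections, and its part was not tested. Cxcl9 in the tendon-marker-poor spots had 1.74 and 2.37 CPM against 5.45 and 16.8 CPM (-2.44 ± 0.59, adjusted p = 0.913 in edgeR). The difference of Cxcl9 was -1.41 without WT 2, and -3.04 and called without WT 1. Cxcl5 had 36.8 and 22.0 CPM against 17.9 and 14.0 CPM (0.89 ± 0.29, adjusted p = 0.9996), and without F592A 1 its difference was 0.47.

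In the tendon-marker-rich spots Cxcl2 had 1.05 and 1.14 CPM in F592A sections, against 0.312 and 0.275 CPM in WT sections (1.87 ± 0.39, adjusted p = 0.208 in edgeR). Ccl3 had 1.42 and 0.802 CPM against 2.50 and 3.02 CPM (-1.29 ± 0.37, adjusted p = 0.286). In epidermal spots Ccl27a had 259 and 254 CPM in F592A sections, against 188 and 76.4 CPM in WT sections (0.89 ± 0.37, adjusted p = 0.556), where the epidermis list was at 73627 and 62348 CPM against 41257 and 52462 CPM. Without WT 1 the difference of Ccl27a was 1.76 and called, and without WT 2 it was 0.47. Ccl8 in epidermal spots had 43.4 and 49.5 CPM against 81.3 and 80.9 CPM (-0.80 ± 0.27, adjusted p = 0.469). In the same spots the fibroblast list was at 12298 and 14496 CPM in F592A sections and 25766 and 24793 CPM in WT sections, and the tendon list at 640 and 761 CPM against 1326 and 1329 CPM, with 8 of 8 tested genes negative. Their part was not tested. The groups do not overlap for any of these 4 members, as was true of 47.1% of all genes in tendon-marker-rich and 39.4% in epidermal spots.

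Ccl11 was the 1 member of 25 whose group difference itself differed between the tendon-marker-rich and the muscle spots, against 1.09% of all genes (160 of 14664). In muscle spots it had 41.9 and 57.7 CPM in F592A sections, against 32.0 and 12.8 CPM in WT sections, a log2 difference of 1.05 ± 0.35 (adjusted p = 0.372 in edgeR), which was 1.96 and called without WT 1 and 0.64 without WT 2. In the tendon-marker-rich spots it had 5.32 and 5.95 CPM against 8.46 and 5.05 CPM (-0.27 ± 0.28, adjusted p = 0.708), with overlap. The difference between these effects, tendon-marker-rich minus muscle, was -1.39 ± 0.26 (adjusted p = 0.0118 in edgeR). DESeq2 put it at -1.45 ± 0.40 and left its adjusted p undefined. Without F592A 2 it was -1.22 and not called (edgeR, adjusted p = 0.127), in a range of 2.54e-05 to 0.127 over the edgeR alternatives. The muscle spots also differed in Myh3, the embryonic myosin and 1 of the muscle markers, at 3.97 and 0.595 CPM in F592A sections and 79.9 and 73.1 CPM in WT sections (log2 -5.00 ± 0.42, adjusted p = 0.0252). The adipose list in muscle spots was at 668 and 867 CPM in F592A sections and 480 and 331 CPM in WT sections. Of its genes 7 of 7 were positive and 0 were called. In adipose spots Ccl11 had 48.1 and 54.3 CPM in F592A sections and 39.3 and 0 CPM in WT sections. These rest on 8, 16, 3 and 0 UMIs, and with 6 adipose spots in WT 2 the 0 there shows no lower level. The tendon list in muscle spots had 10 of 10 genes negative. The part of these in the difference was not tested.

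**Figure D5:**
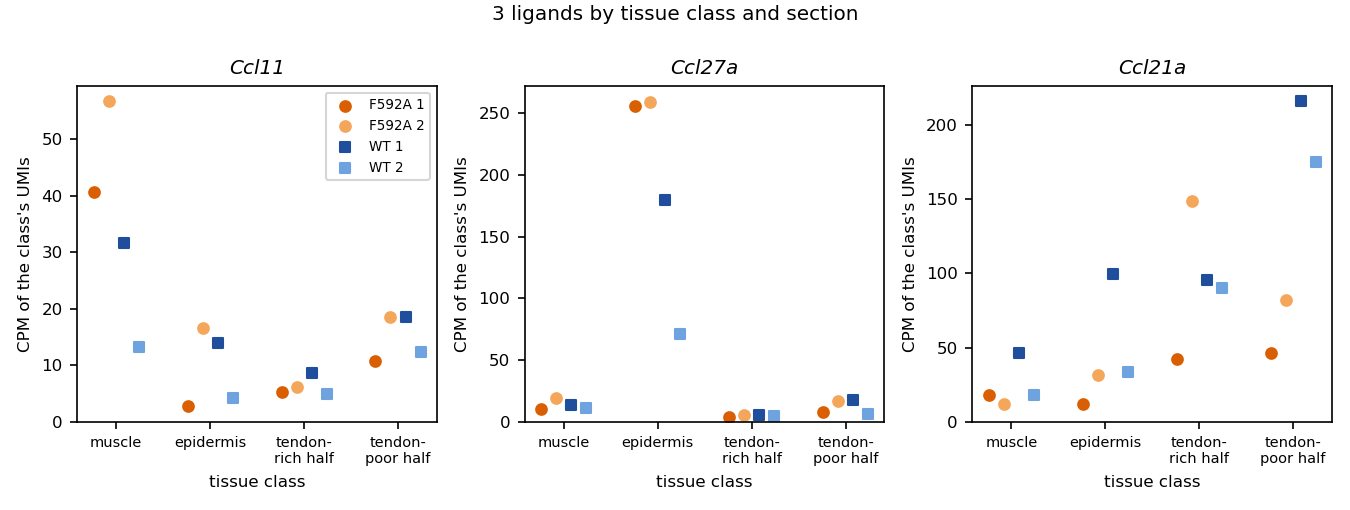
CPM of Ccl11, Ccl27a and Ccl21a in each tissue class and section, F592A circles left of WT squares, scaled by the UMIs of the class alone, so that values differ slightly from the TMM-scaled ones in the text. Of the 4 classes drawn, Ccl11 is highest in muscle in all 4 sections, narrowly so in WT 2 (13.3 CPM in muscle and 12.4 CPM in tendon-marker-poor spots). Ccl27a is highest in epidermis in all 4 sections, and Ccl21a is higher in WT than in F592A sections in tendon-marker-poor spots.

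Of 19 chemokine receptors, 13 were tested in whole sections, 0 passed the threshold, 5 were positive and 8 negative, and 3 had an unadjusted p under 0.05 (edgeR). Cxcr4, the receptor of Cxcl12, had 31.5 and 25.1 CPM in F592A sections, against 17.9 and 16.4 CPM in WT sections (0.72 ± 0.14, adjusted p = 0.198). Ccr1, which binds Ccl6 and Ccl9 in mouse, had 17.7 and 20.3 CPM against 13.4 and 12.3 CPM (0.57 ± 0.12, adjusted p = 0.224). Cxcr3 had 0.760 and 0.576 CPM against 1.29 and 1.61 CPM (-1.10 ± 0.33, adjusted p = 0.314), the same direction as its ligand Cxcl9, and Xcr1 0.645 and 0.681 CPM against 1.08 and 0.993 CPM (-0.65 ± 0.31). The groups do not overlap for any of these 4 receptors, as was true of 44.2% of all genes. These 4 were chosen by smallest p in the same comparison, so their lack of overlap is no separate result.

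All 4 atypical receptors, which bind chemokines without G protein signalling, were positive and 0 were called. Ackr3, which binds Cxcl12, had 168 and 194 CPM in F592A sections, against 86.7 and 152 CPM in WT sections (0.60 ± 0.27, adjusted p = 0.465 in edgeR). Ackr2, a scavenger of inflammatory CC ligands, had 2.99 and 5.82 CPM against 2.27 and 2.05 CPM (1.019 ± 0.36, adjusted p = 0.374), and Ackr4, which takes up Ccl21a, 10.3 and 13.9 CPM against 5.97 and 8.56 CPM (0.75 ± 0.24, adjusted p = 0.344). Ackr1 had 15.0 and 17.4 CPM against 13.3 and 14.1 CPM. Of the chemokines outside the symbol rule, Pf4 had 206 and 216 CPM against 166 and 141 CPM (0.46 ± 0.12, adjusted p = 0.282), Xcl1 had 0.599 and 0.576 CPM against 1.29 and 0.822 CPM, and Ppbp overlapped, with 0 of 3 called.

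By tissue, 10 of 12 tested receptors rose and 0 fell in macrophage-marker-rich spots, against 14.1% of all genes higher and 16.5% lower. Among those that rose were Ccr1 (log2 1.396 ± 0.08), Ccr2 (1.37 ± 0.13) and Cxcr3 (1.61 ± 0.34). In muscle 1 of 12 rose, Ccrl2, and 5 fell, against 27.9% of all genes higher and 29.5% lower. In epidermal spots 2 of 14 rose and 5 fell, against 20% of all genes higher and 24% lower. One of the risers was Ccr4 (4.68), the receptor of Ccl22, and the other was Ccr9 (2.91). The T and NK cell list also rose there, with 6 of 9 tested genes called higher. In the tendon-marker-rich spots 1 of 13 rose, Cx3cr1, and 7 fell, against 17.1% of all genes higher and 19.3% lower. Ackr4 rose in epidermal spots (2.40) and in the tendon-marker-rich spots (0.90).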

How the data were processed

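Per the file headers, Space Ranger 1.3.0 made the deposited matrices, which contain raw UMI counts, not normalized, for each gene and spot. The build mm10 and Seurat 3 come from the submitters' processing notes, and other upstream settings are not given in the sources used here. Tested on the files, the barcodes are the spots under tissue. Gene IDs, symbols, barcodes and array positions were taken over unchanged. Image scale factors had no use here.

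Spots with at least 500 UMIs were kept and classed, in this order, as muscle (at least 10% of UMIs from its marker list), epidermis (3%), nerve (0.5%), adipose (1%) or connective. Classes with under 50 spots in any section were not tested. Doublets have no meaning for spots, which can hold several cells.

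Counts were summed per section and class, since spots are not replicates, and tested in R 4.3.3 with edgeR 4.0.16 (quasi-likelihood test, TMM factors, filterByExpr). P-values were adjusted by Benjamini-Hochberg over all genes tested, and a call is an adjusted p under 0.05. SEs were derived from the F statistic and the log2 fold change. CPM are TMM-scaled within each comparison, except for nerve and adipose spots and sums over lists. Tissue and interaction fits had the section as a block. The scripts were tested on simulated counts first. As alternatives the fits were repeated in DESeq2 1.42.0, with RLE factors, without the filter, without each section, with a replicate block, with every spot kept, and with other class thresholds and splits. A crossed replicate block and scaling by total UMIs alone were added after the data were seen. Python 3.11.15, numpy 2.4.6, pandas 2.3.3, scipy 1.17.1 and matplotlib 3.10.9 were used. The libraries held 30154873 to 43957617 UMIs, so that counting error is large for members under about 1 CPM. The bounds for counts of 0 cover counting error only.

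The members, the marker lists and the tests were chosen with earlier results of these data known. Values in every section are given for the 12 members with the highest mean level and for any with an unadjusted p under 0.05 in whole sections, and receptors for up to 4 per list by smallest p. Gene positions and promoters are from RefSeq. Protein sequences were not used here. Results that need items withheld for evaluation are not reported here.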

Additional observations from a re-analysis of the deposited data

Results flagged for a closer look

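The group difference of Ccl11 was not the same in tendon-marker-rich and in muscle spots. The log2 fold change of F592A over WT, tendon-marker-rich minus muscle, differed by -1.39 in the interaction test of edgeR, which did not pass without F592A 2.

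The other differences of this kind were seen but not tested. For Cxcl16 the F592A sections were below WT in muscle spots (12.5 and 11.9 against 15.6 and 17.4 CPM) and above WT in epidermal spots (69.8 and 68.3 against 52.1 and 40.4 CPM), a difference of log2 fold changes, muscle minus epidermis, of -0.95. For Ccl2 the F592A sections were above WT in the tendon-marker-poor spots (31.0 and 31.7 against 30.3 and 15.8 CPM) and below WT in muscle spots (4.504 and 2.97 against 5.77 and 6.96 CPM), a difference, tendon-marker-poor minus muscle, of 1.17. For Ccl2 in the tendon-marker-poor spots, WT 1 lay close to the F592A sections. Both genes were picked because their groups did not overlap, in opposite directions. The groups did not overlap for 42.2% of all genes in muscle, 39.4% in epidermal and 28.7% in tendon-marker-poor spots. No difference between groups of these 2 genes passed the adjusted threshold of edgeR in any class.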

How the results depend on the processing

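In whole sections the number of members called was 0, and it was 1 in DESeq2 and with no filter (Cxcl9 in both), 1 with the crossed replicate block (Ccl5, adjusted p = 0.0258, added after the data were seen), 0 with the replicate block, and 0 to 3 on leaving out each section (3 without WT 1: Ccl27a, Ccl7 and Cxcl9). The sections share only a number: the deviations of same-numbered sections correlated at -0.169 over 16347 genes. In muscle spots no filter called 2 members and leaving out a section 0 to 1, against 0. In epidermal spots it was 1 with no filter, 1 with the replicate block and 0 to 2, against 0, in the tendon-marker-rich spots 0 to 1, and in the tendon-marker-poor spots 2 in DESeq2, 2 with no filter and 0 to 1. For the interaction, with 1 called, DESeq2 called 0, no filter 2 and leaving out a section 0 to 3. The cause was not tested. Leaving out a section leaves 1 in its group, which is then assumed to vary like the others.

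For the tissue comparisons the count stayed within 1.5 times of the one reported in every alternative run: 14 to 19 for muscle, 12 to 18 for epidermis, 7 to 11 for tendon-marker-rich spots and 15 to 21 for macrophage-marker-rich spots. A similar count does not mean the same members. In tendon-marker-rich spots Ccl6, Ccl5, Ccl8 and Ccl7 were not called with class thresholds at 2 times the level. The direction of 1 called member turned, Cxcl14 in muscle, at -0.31 by total UMIs. Class thresholds at 2 times the level were not run for muscle, epidermis and the interaction, where a section had under 50 spots. Counts under about 1 CPM, as for Cxcl2 and Ccl17, limit those members.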
